A study of Mus musculus with 12 samples.

Results

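Translation initiation and elongation factors are the soluble proteins that load ribosomes onto messages and move them along. They were taken here as every protein-coding gene whose mouse symbol starts with Eif or Eef and a digit. The rule found 67 genes among the 21397 protein-coding genes and 41388 genes of all kinds in the count tables, and it left out 7 matching symbols of pseudogenes and other non-coding genes. RNA was sequenced from 12 libraries in 4 groups of 3, made from the cortex and hippocampus of mice of strain C57/Bl6, aged 21 days after birth. All groups came from mice that carried eGFP-tagged Rpl10a, a ribosomal protein, driven by the promoter of the astrocyte gene Aldh1l1, and all were exposed to cycloheximide at 1 ug/mL and TTX at 1 mM. Translating ribosome affinity purification (TRAP) pulls the tagged ribosomes and their bound RNA out of a lysate with antibodies to the tag. PAP TRAP (peripheral astrocyte process TRAP) is the immunoprecipitate of a synaptoneurosome fraction, a layer of a sucrose gradient that holds synapses and the processes around them. Synaptoneurosome input is that fraction before precipitation, cortex TRAP is the immunoprecipitate of whole tissue, and cortex input is the whole-tissue lysate before precipitation. The labels call all 12 libraries astrocytes, although the input groups hold RNA of all cells. No label says whether replicates came from separate animals or from pools, so p-values measure the spread between these libraries, which may be technical.

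Protein synthesis starts when eIF2 brings the initiator tRNA to the small ribosomal subunit, where eIF1, eIF1A, eIF3 and eIF5 help to find the start codon. The eIF4 factors bind the cap and unwind the message, and the eIF4E-binding proteins block that step until mTOR phosphorylates them. In elongation eEF1A delivers aminoacyl-tRNA, the eEF1B subunits recharge it with GTP, and eEF2 moves the ribosome by a codon. Several factors have paralogs, and in mice Eef1a2 is known as the form of mature neurons and muscle, where it takes the place of the widely expressed Eef1a1. Many of these genes, Eef1a1, Eef2 and several eIF3 subunits among them, have messages that open with a pyrimidine tract and are controlled by mTOR.

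Genes of the nuclear genome held 1423296 to 2476076 counts per library in the synaptoneurosome inputs and 4864787 to 7777763 in the other groups. The mitochondrial chromosome took 35.6% to 47.6% of gene counts in PAP TRAP, 83.8% to 91.9% in synaptoneurosome input, 1.03% to 1.28% in cortex TRAP and 44.8% to 50.2% in cortex input. All 10 astrocyte markers were detected in every library, and together they held 4.82% to 9.43% of nuclear counts in PAP TRAP, 4.02% to 4.84% in synaptoneurosome input, 6.87% to 10.04% in cortex TRAP and 0.799% to 0.879% in cortex input. All 10 neuron markers were also detected in every library, at 0.389% to 0.573% in PAP TRAP, 1.04% to 1.46% in synaptoneurosome input, 0.189% to 0.296% in cortex TRAP and 1.74% to 1.92% in cortex input. The oligodendrocyte list held 0.779% to 1.03% in PAP TRAP, 0.529% to 0.724% in synaptoneurosome input, 0.0581% to 0.0860% in cortex TRAP and 0.397% to 0.424% in cortex input, with none of its 6 genes at 0. The 8 microglia markers held 0.0247% to 0.0368% in PAP TRAP, 0.0592% to 0.124% in synaptoneurosome input, 0.00217% to 0.00361% in cortex TRAP and 0.0127% to 0.0154% in cortex input, with 1 or 2 of them at 0 in each cortex TRAP library and 1 in a cortex input library. In bulk libraries such as these, fewer cells of a type and less RNA per cell cannot be told apart.

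The factors together took 0.481% to 0.563% of nuclear counts in PAP TRAP, 0.480% to 0.538% in synaptoneurosome input, 0.829% to 0.843% in cortex TRAP and 0.600% to 0.643% in cortex input. Their share was thus highest in cortex TRAP, next in cortex input, and overlapped between PAP TRAP and synaptoneurosome input. Eif4g2 alone held 0.109% to 0.166% in PAP TRAP, 0.107% to 0.121% in synaptoneurosome input, 0.310% to 0.318% in cortex TRAP and 0.133% to 0.151% in cortex input. Without it, a sum chosen after seeing the data, the share was 0.372% to 0.397% in PAP TRAP, 0.374% to 0.427% in synaptoneurosome input, 0.514% to 0.524% in cortex TRAP and 0.467% to 0.492% in cortex input, so most of the gap between cortex TRAP and cortex input lay in Eif4g2. Of the 67 genes, 63 passed the filter on low counts. The 4 that did not were Eef1akmt3, Eif3j2, Eif4e1b and Eif4ebp3, which had at most 1.22 normalized CPM (counts scaled to library size) in every library. Changes below are log2 differences ± SE from an edgeR quasi-likelihood fit of all 12 libraries, and a gene is called when its Benjamini-Hochberg adjusted p over all 13364 genes tested is under 0.05. Levels are TMM-normalized CPM.

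In PAP TRAP against cortex TRAP, 4 of the 63 factors were called higher and 20 lower. Over all genes tested, 19.3% were called higher and 14.6% lower in that comparison. The factors' median change was -0.65, beside -0.28 for all genes, so most of them sat further down than the typical gene. In cortex TRAP against cortex input, 14 were called higher and 5 lower, where the background was 15.9% higher and 19.5% lower, and the median was 0.69 for the factors and 0.05 for all genes. Against synaptoneurosome input, PAP TRAP had 2 called higher and 0 lower, a share near the background of 3.0% higher and 1.53% lower, with medians of 0.07 and 0.06. There, 8 factors had an unadjusted p under 0.05, and DESeq2 called 2 higher and 1 lower, beside 673 and 556 of all genes. In synaptoneurosome input against cortex input, 1 was called higher and 0 lower, against a background of 7.26% and 2.07%. In that comparison 12 had an unadjusted p under 0.05, and DESeq2 called 4 higher and 1 lower, beside 1522 and 494 of all genes. The difference between the enrichment in PAP TRAP over its input and that in cortex TRAP over its input, an interaction term, was called higher for 1 factor and lower for 4, against 12.9% and 7.32% of all genes. PAP TRAP against cortex TRAP and cortex TRAP against cortex input share the cortex TRAP libraries, so a gene high in those libraries appears in both.

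Calls that held with each library left out in turn numbered 10 of 24 in PAP TRAP against cortex TRAP (Eef1a2, Eef1e1, Eef2, Eif1, Eif1b, Eif3a, Eif3g, Eif4a1, Eif4g2 and Eif5a) and 10 of 19 in cortex TRAP against cortex input (Eef1a2, Eif1, Eif2ak2, Eif3a, Eif3f, Eif4a2, Eif4ebp2, Eif4enif1, Eif4g2 and Eif5a2). The counts also depended on single libraries. In cortex TRAP against cortex input, 12 factors were called without cortex input replicate 3. Calls over all genes fell there as well, from 4737 to 3921. The comparison of PAP TRAP with cortex TRAP had 15 called without cortex TRAP replicate 1 and 13 without cortex TRAP replicate 3. The 2 calls in PAP TRAP against synaptoneurosome input fell to 0 without synaptoneurosome input replicate 2 or 3 or PAP TRAP replicate 1, and to 1 without PAP TRAP replicate 3. With RLE scaling that comparison had 1 called higher and 1 lower, beside 342 and 227 of all genes. The interaction had 0 higher and 4 lower with RLE scaling, beside 1665 and 1023 of all genes. Without mitochondrial genes the interaction had 2 higher and 2 lower, beside 1848 and 873 of all genes. That same setting moved the median of all genes in PAP TRAP against cortex TRAP from -0.28 to -0.13 and that of the factors to -0.51, with 5 called higher and 14 lower. Over all genes it moved the calls from 2577 higher and 1949 lower to 2754 and 1565.

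**Figure D1:**
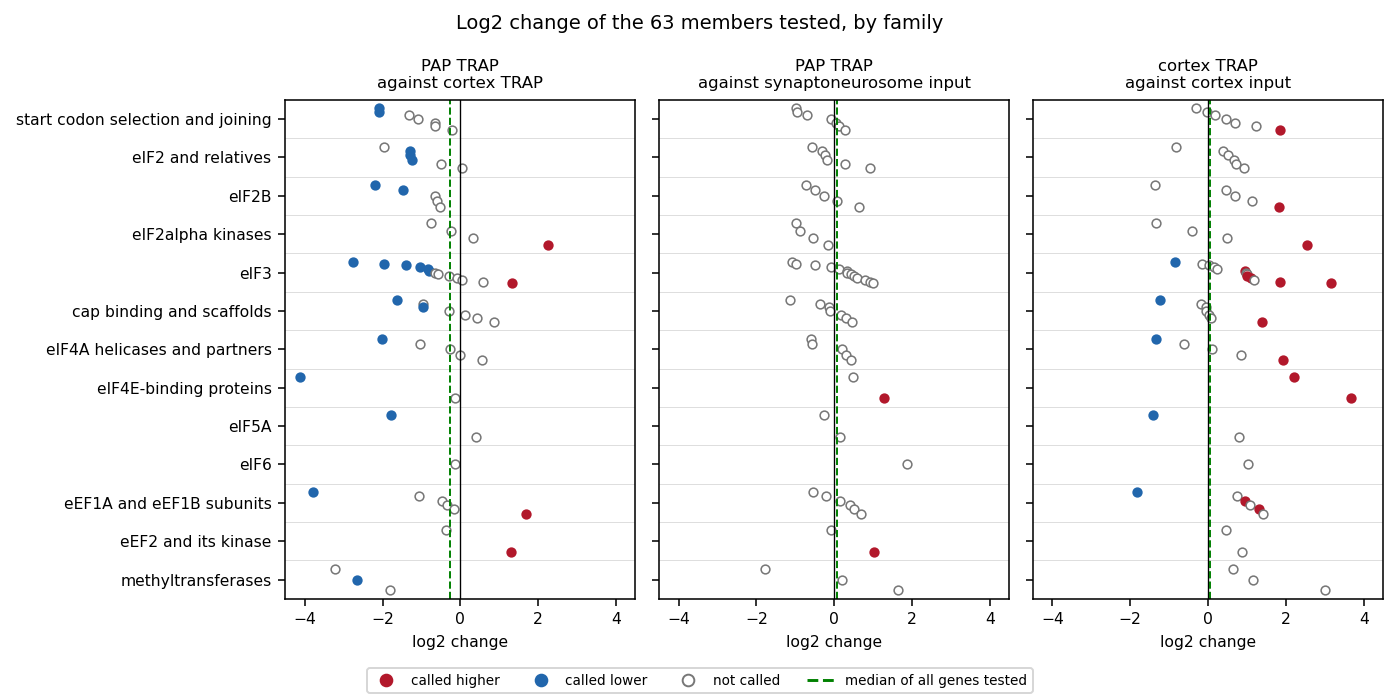
Log2 change (horizontal axis) of each of the 63 factors tested, grouped by family (vertical axis), in PAP TRAP against cortex TRAP, PAP TRAP against synaptoneurosome input and cortex TRAP against cortex input. Filled red and blue points are genes called higher and lower, open points are not called, and the dashed line is the median of all genes tested. Blue points (20) outnumber red ones (4) in the left panel, red ones (14) outnumber blue ones (5) in the right panel, and the middle panel has 2 red points.

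The eEF1A paralogs were called in different comparisons. Eef1a2 was higher in PAP TRAP than in cortex TRAP and lower in cortex TRAP than in cortex input, while Eef1a1 was higher in cortex TRAP than in cortex input. Eef1a2 (ENSMUSG00000016349, chr2:181147653-181157014, minus strand, GRCm38) had 28.6, 17.6 and 35.2 CPM in PAP TRAP, 22.5, 35.5 and 35.5 in synaptoneurosome input, 5.27, 4.98 and 14.9 in cortex TRAP and 33.5, 25.8 and 30.5 in cortex input. Every cortex TRAP library was below every library of the other groups, and the other groups overlapped one another. Behind these values stood 213 to 453 counts in PAP TRAP, 74 to 184 in synaptoneurosome input, 60 to 249 in cortex TRAP and 388 to 605 in cortex input. The change was 1.69 ± 0.43 in PAP TRAP against cortex TRAP (adjusted p = 0.00523) and -1.83 ± 0.43 in cortex TRAP against cortex input (adjusted p = 0.00241). Both calls held with every library left out in turn, and cortex TRAP replicate 3, the highest of its group, moved the first most, to 2.55 without it. In PAP TRAP against synaptoneurosome input the difference was -0.20, with a 95% interval from -1.09 to 0.68, and in synaptoneurosome input against cortex input it was 0.06, from -0.82 to 0.94. The interaction for Eef1a2 was 1.63 ± 0.60 with an adjusted p of 0.0618, not called; without cortex TRAP replicate 3 it was 2.49 with an adjusted p of 0.00229. It also passed with no filter on low counts, with DESeq2, with the replicate block, without mitochondrial genes and with length-corrected offsets, at 1.60 to 2.09 (adjusted p of 0.0228 to 0.0428).

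The markers of neurons, oligodendrocytes and microglia moved the same way as Eef1a2. Of the 10 neuron markers tested, 9 were called higher and 0 lower in PAP TRAP against cortex TRAP, with a median change of 2.68, and 10 were called lower in cortex TRAP against cortex input, with a median of -3.19. In the first of these comparisons 4 of 6 oligodendrocyte and 6 of 8 microglia markers were called higher (medians 3.19 and 3.22). In the second, 5 of 6 and 5 of 8 were called lower (medians -2.20 and -2.19). Of the 10 astrocyte markers, 8 were called lower in PAP TRAP against cortex TRAP and 10 higher in cortex TRAP against cortex input. Among the PAP TRAP libraries, replicate 2 had the lowest Eef1a2 level and the highest astrocyte marker share, 9.43% of nuclear counts. The part of other cell types in the Eef1a2 values was not tested.

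Eef1a1 (ENSMUSG00000037742, chr9:78478449-78489151, minus strand, GRCm38) had 92.5, 160 and 121 CPM in PAP TRAP, 76.9, 90.5 and 64.5 in synaptoneurosome input, 155, 175 and 139 in cortex TRAP and 83.2, 82.1 and 80.1 in cortex input. Every TRAP library of either preparation lay above every input library, and PAP TRAP overlapped cortex TRAP. In cortex TRAP against cortex input the change was 0.94 ± 0.25 (adjusted p = 0.00683). That call was lost without any of the cortex input replicates or without cortex TRAP replicate 2 (adjusted p up to 0.0637), and with offsets corrected for gene length, where the change was 0.40. The PAP TRAP libraries were all above the synaptoneurosome inputs, yet the difference of 0.69 ± 0.26 was not called (adjusted p = 0.135). PAP TRAP against cortex TRAP gave -0.33, with a 95% interval from -0.86 to 0.20. Of the 50-base windows in the longest annotated transcript of Eef1a1, 60.6% also occur in transcripts of other genes, 18 of these 21 genes being pseudogenes. None of those in the longest transcript of Eef1a2 do. Alignments that were not unique were counted apart and not given to any gene. They made up 29.9% to 32.5% of counts in cortex TRAP and 17.5% to 18.6% in cortex input. The shares were 21.3% to 29.3% in PAP TRAP and 16.1% to 19.5% in synaptoneurosome input. The level of Eef1a1, and any ratio to it, is therefore uncertain, since how many of them came from Eef1a1 is not known.

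The ratio of Eef1a2 to Eef1a1 counts needs no scaling between libraries. It was 0.309, 0.110 and 0.291 in PAP TRAP, 0.293, 0.393 and 0.551 in synaptoneurosome input, 0.0340, 0.0284 and 0.107 in cortex TRAP and 0.403, 0.314 and 0.381 in cortex input. The highest cortex TRAP library lay just under the lowest PAP TRAP library. On the log2 scale with 0.5 added to each count, the ratio averaged -2.22 ± 0.84 in PAP TRAP, -1.32 ± 0.46 in synaptoneurosome input, -4.41 ± 1.03 in cortex TRAP and -1.46 ± 0.19 in cortex input (SD, n = 3 each). TRAP against input, stratified by preparation, gave a difference of -1.92 (exact permutation test, two-sided, p = 0.01, where 0.005 is the smallest value 400 arrangements allow). Fractionated against whole tissue, stratified by TRAP or input, gave 1.16 (exact permutation test, two-sided, p = 0.07). Adjusted over the 20 tests of 10 paralog pairs, these exact p-values became 0.1 and 0.156, so neither passed. The separate comparisons of 3 against 3 libraries cannot go below an exact p of 0.1, the value reached by PAP TRAP against cortex TRAP (difference 2.19) and by cortex TRAP against cortex input (difference -2.95).

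**Figure D2:**
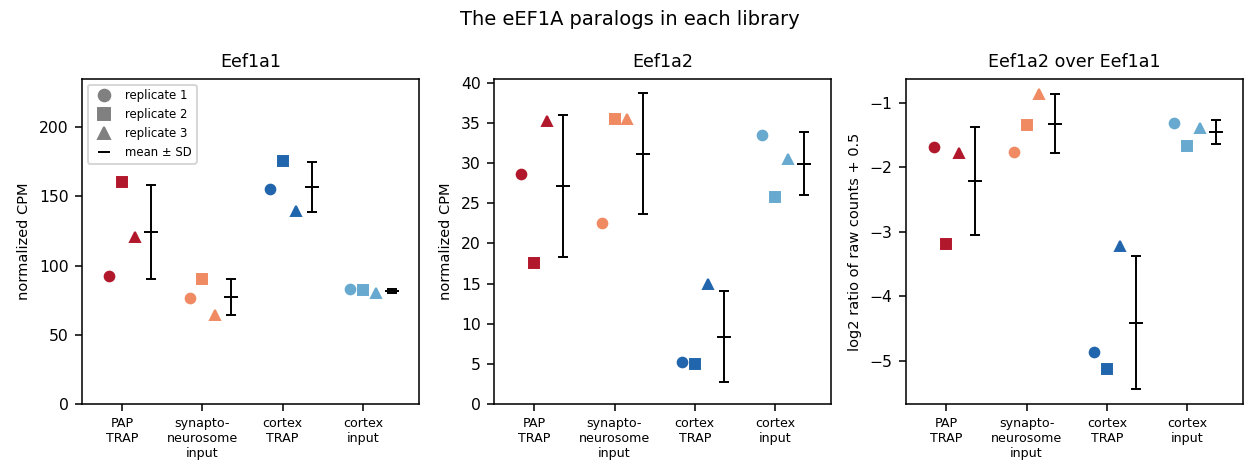
Normalized CPM of Eef1a1 and Eef1a2 and the log2 ratio of their counts (vertical axes) in each library of the 4 groups (horizontal axes). Symbols are replicates and black bars the mean ± SD of 3 libraries. Eef1a2 lies at 4.98 to 14.9 CPM in cortex TRAP and at 17.6 CPM or more in every other library.

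Across the 12 libraries, the protein-coding genes whose log2 level was most like that of Eef1a2 were Gramd1b (Pearson r = 0.965), Slc30a3 (0.962), Atp8a2 (0.961), Brsk2 (0.959) and Copg1 (0.958). For Eef1a1 they were Gatm (0.977), Phyh (0.963), 4833439L19Rik (0.959), Rhobtb3 (0.956) and Fibp (0.956). These values describe the same 12 libraries in 4 groups and are the top of a ranking, with no test.

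The stretch around the transcription start is shown for the eEF1A paralogs and Eef2, the elongation factors whose calls are described most fully here, from 60 bases before to 50 after the RefSeq start (GRCm38.p6), read on the gene's strand. Capitals mark TATAAA or TATATA, searched on both strands.
Eef1a2, chr2:181156966-181157075, minus strand: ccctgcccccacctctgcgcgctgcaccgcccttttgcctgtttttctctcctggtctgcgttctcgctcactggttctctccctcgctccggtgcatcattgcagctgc
Eef1a1, chr9:78481675-78481784, minus strand: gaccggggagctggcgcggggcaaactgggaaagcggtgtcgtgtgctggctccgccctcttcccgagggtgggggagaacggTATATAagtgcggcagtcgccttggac
Eef2, chr10:81176571-81176680, plus strand: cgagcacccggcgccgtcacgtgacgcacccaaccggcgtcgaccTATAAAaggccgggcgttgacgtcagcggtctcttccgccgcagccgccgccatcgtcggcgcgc
The letters occur in the windows of Eef1a1 and Eef2 and not in that of Eef1a2. Searched over the same stretch of 110 bases, they occur in 2219 of 32851 promoter windows of all genes (6.76%). Of 66 windows of 51 factors, 3 hold them in that stretch (4.55%), those of Eef1a1, Eef2 and Eif1. A match is a description of the letters only.

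Eef2, the translocase and single-copy partner of eEF1A in elongation, was higher in PAP TRAP than in either group it was set against. It (ENSMUSG00000034994, chr10:81176631-81182498, plus strand, GRCm38) had 427, 315 and 448 CPM in PAP TRAP, 293, 163 and 127 in synaptoneurosome input, 141, 176 and 163 in cortex TRAP and 111, 101 and 133 in cortex input. The lowest PAP TRAP library exceeded the highest synaptoneurosome input, which itself stood above the other inputs. The change was 1.31 ± 0.28 in PAP TRAP against cortex TRAP (adjusted p = 0.00152), held with every library left out. In PAP TRAP against synaptoneurosome input it was 1.03 ± 0.28 (adjusted p = 0.0436), and this call was lost without synaptoneurosome input replicate 2 or 3 or PAP TRAP replicate 1 or 3 (adjusted p up to 0.166), with RLE scaling (0.0641) and with GC-corrected offsets (0.121). Scaled by exon length, Eef2 ranked first of the factors in PAP TRAP at 119 ± 21.6 CPM per kb, ahead of Eif4g2 at 67.3 ± 14.4 and Eef1a1 at 49.9 ± 13.6 (SD, n = 3). It also ranked first in synaptoneurosome input, behind Eif4g2 and Eef1a1 in cortex TRAP and behind Eif4g2 in cortex input. Its kinase Eef2k, which inactivates eEF2, was not called in any comparison and had 8.69 to 17.0 CPM in PAP TRAP and 8.87 to 27.4 in cortex TRAP.

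Among the eEF1B subunits, Eef1b2, the exchange subunit, was higher in cortex TRAP than in cortex input by 1.32 ± 0.34 (adjusted p = 0.00504). It had 32.6, 42.0 and 25.5 CPM in cortex TRAP and 13.5, 15.7 and 11.004 in cortex input. The call was lost without cortex input replicate 3 or cortex TRAP replicate 2, and with length-corrected offsets. Eef1d and Eef1g were not called in any comparison, and 64.3% of Eef1g windows are shared with pseudogenes. Eef1e1, a scaffold of the tRNA synthetase complex, was called lower in PAP TRAP, at 0.176, 0.661 and 0.699 CPM, than in cortex TRAP, at 6.17, 12.8 and 2.93 (-3.80 ± 0.92, adjusted p = 0.00362). Of the methyltransferases that modify eEF1A and eEF2, Eef1akmt2 was called lower in PAP TRAP than in cortex TRAP (-2.65 ± 0.83, adjusted p = 0.0185), at 1.76, 2.40 and 0.622 CPM against 10.2, 8.79 and 10.995. That call was lost without cortex TRAP replicate 1 or 3 or PAP TRAP replicate 3, and with length-corrected offsets.

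Eif1, the factor that guards start codon selection, was the member with the smallest adjusted p in PAP TRAP against cortex TRAP. It had 13.2, 23.8 and 21.3 CPM in PAP TRAP, 15.8, 17.9 and 14.5 in synaptoneurosome input, 78.6, 89.1 and 78.4 in cortex TRAP and 23.3, 19.1 and 26.2 in cortex input. Every cortex TRAP library lay above all others, the highest of which had 26.2 CPM. The change was -2.08 ± 0.31 in PAP TRAP against cortex TRAP (adjusted p = 3.45e-05) and 1.84 ± 0.31 in cortex TRAP against cortex input (adjusted p = 9.15e-05). Its paralog Eif1b had 9.83, 8.26 and 11.8 CPM in PAP TRAP and 45.9, 50.5 and 30.4 in cortex TRAP, a change of -2.08 ± 0.37 (adjusted p = 0.000232). All of these calls held with every library left out, though with length-corrected offsets Eif1 came to -1.16 and 1.11 and Eif1b to -1.04. Of Eif1 windows, 31.6% are shared with other genes, 17 of these 18 being pseudogenes. The other members of this group, among them Eif1a, Eif1ax, Eif5 (which makes eIF2 hydrolyse GTP) and Eif5b (which joins the large subunit), were not called in any comparison. Eif1ax held 45.5 to 70.5 CPM in PAP TRAP and 76.4 to 99.2 in cortex TRAP, and Eif5 held 58.1 to 93.3 and 114 to 144.

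Of the 6 genes for eIF2 and its relatives, 3 were called lower in PAP TRAP than in cortex TRAP and the other 3 were not called. Eif2s1, the alpha subunit that stress kinases phosphorylate, had 6.23, 20.3 and 7.69 CPM in PAP TRAP and 24.2, 35.8 and 21.7 in cortex TRAP (-1.25 ± 0.44, adjusted p = 0.0338). Without PAP TRAP replicate 2, the highest of its group, the change was -1.97, and the call was lost with the compared groups alone, without mitochondrial genes and with length-corrected offsets. Eif2s2, the beta subunit, changed by -1.30 ± 0.45 and Eif2a, an alternative initiator tRNA factor, by -1.28 ± 0.40. Among eIF2B subunits, which recharge eIF2 with GTP, Eif2b1 was lower by -1.46 ± 0.46 and Eif2b2 by -2.19 ± 0.65. Eif2b2 was also called higher in cortex TRAP, at 7.53, 20.7 and 16.3 CPM, than in cortex input, at 4.26, 3.79 and 4.46. These 6 calls were each lost in 2 to 5 of the 6 fits that left out a library, with adjusted p up to 0.191. Eif2s3y, the Y-linked gamma subunit, was detected in all libraries but synaptoneurosome input replicate 1 and never exceeded 7.70 CPM, and its X-linked partner Eif2s3x never exceeded 3.59 CPM.

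The 4 eIF2alpha kinases each answer a different stress. Eif2ak2, the kinase of double-stranded RNA, had 5.97, 10.7 and 14.997 CPM in PAP TRAP, 6.38, 8.96 and 19.9 in synaptoneurosome input, 25.5, 18.2 and 10.2 in cortex TRAP and 2.55, 6.05 and 0.611 in cortex input. It was called higher in cortex TRAP than in cortex input (2.55 ± 0.69, adjusted p = 0.00654), a call that held with every library left out. Eif2ak3, the kinase of endoplasmic reticulum stress, had 4.74, 5.54 and 14.9 CPM in PAP TRAP against 1.87, 0.746 and 2.63 in cortex TRAP (2.25 ± 0.64, adjusted p = 0.0104). That call was lost without PAP TRAP replicate 3, the highest library (adjusted p = 0.0555). Eif2ak3 averaged 15.5 ± 6.61 CPM in synaptoneurosome input and 4.5 ± 0.273 in cortex input (SD, n = 3). Microglia markers were called higher in 6 of 8 cases in PAP TRAP against cortex TRAP, as Eif2ak3 was. So were 9 of 10 neuron and 4 of 6 oligodendrocyte markers, while 8 of 10 astrocyte markers were called lower. The part of these cell types in the change of Eif2ak3 was not tested. In cortex TRAP against cortex input, where Eif2ak2 was higher, 5 of 8 microglia, 10 of 10 neuron and 5 of 6 oligodendrocyte markers were called lower. All 10 astrocyte markers were called higher there, and the part of any cell type in the change of Eif2ak2 was not tested. Eif2ak1 and Eif2ak4, the heme and amino acid sensors, were not called in any comparison.

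The eIF3 family of 14 genes was divided. In PAP TRAP against cortex TRAP 6 of the 13 tested were called lower and Eif3a alone higher, and in cortex TRAP against cortex input 5 were called higher and Eif3a alone lower. Eif3a, the largest subunit and scaffold of the complex, had 158, 151 and 168 CPM in PAP TRAP, 254, 195 and 229 in synaptoneurosome input, 83.7, 55.9 and 49.96 in cortex TRAP and 119, 126 and 96.7 in cortex input. No 2 groups overlapped. The change was 1.33 ± 0.25 in PAP TRAP against cortex TRAP (adjusted p = 0.000429), -0.85 ± 0.25 in cortex TRAP against cortex input (adjusted p = 0.0115) and 0.99 ± 0.25 in synaptoneurosome input against cortex input (adjusted p = 0.0167). Eif3a was the single factor called between the inputs, and that call was lost without cortex input replicate 1 or 3 or synaptoneurosome input replicate 1 (adjusted p up to 0.0974). With length-corrected offsets the call in cortex TRAP against cortex input was lost and the change in PAP TRAP against cortex TRAP was 0.87.

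Eif3f, a subunit of the regulatory core, had 32.0, 33.1 and 32.6 CPM in PAP TRAP, 18.2, 17.9 and 20.3 in synaptoneurosome input, 49.9, 69.3 and 52.8 in cortex TRAP and 14.9, 15.3 and 17.4 in cortex input. No groups overlapped, and the order from high to low was cortex TRAP, PAP TRAP, synaptoneurosome input and cortex input. It was higher in cortex TRAP than in cortex input by 1.85 ± 0.29 (adjusted p = 5.06e-05), with every library left out as well. Its difference of 0.79 in PAP TRAP against synaptoneurosome input was not called (adjusted p = 0.132). In the same comparison of cortex TRAP and cortex input, Eif3h, Eif3i and Eif3l were called higher by 1.00 ± 0.31, 1.10 ± 0.35 and 0.94 ± 0.34, calls that were lost whichever library was left out. Eif3g, a subunit that promotes scanning, had 6.49, 14.2 and 2.33 CPM in PAP TRAP and 20.1, 35.0 and 34.0 in cortex TRAP (-1.95 ± 0.52, adjusted p = 0.00735). The call was lost with length-corrected offsets, where the change was -1.02 (adjusted p = 0.127). Eif3f, Eif3h, Eif3i and Eif3k were also called lower in PAP TRAP than in cortex TRAP, by -0.82 to -1.41, each lost in 5 or 6 of the 6 fits without a library. Eif3h turned positive in that comparison with length-corrected offsets.

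Eif3d, a subunit that can bind the cap itself, rested on a single library. Its level was 9.39, 6.03 and 2.80 CPM in PAP TRAP, 6.38, 5.67 and 4.83 in synaptoneurosome input, 103, 13.1 and 7.89 in cortex TRAP and 5.70, 4.59 and 3.55 in cortex input. Cortex TRAP replicate 1 held 1817 counts, against 158 and 132 in the other cortex TRAP libraries. With it, the change was 3.16 ± 0.74 in cortex TRAP against cortex input and -2.77 ± 0.73 in PAP TRAP against cortex TRAP. Without it these became 1.05 and -0.66, neither called (adjusted p = 0.250 and 0.489). Of Eif3d windows, 42.1% occur in transcripts of a second gene.

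Eif4g2, the scaffold protein DAP5 that lacks the eIF4E site, was the most abundant factor in cortex TRAP per kb of exon, at 129.8 ± 6.12 (SD, n = 3). Its levels were 534, 825 and 692 CPM in PAP TRAP, 482, 512 and 511 in synaptoneurosome input, 1391, 1285 and 1282 in cortex TRAP and 509, 522 and 492 in cortex input. The inputs were alike and PAP TRAP lay between them and cortex TRAP. The change was -0.95 ± 0.21 in PAP TRAP against cortex TRAP (adjusted p = 0.00177) and 1.38 ± 0.21 in cortex TRAP against cortex input (adjusted p = 3.84e-05), both with every library left out as well. With length-corrected offsets these changes were larger, at -2.05 and 2.16. The other scaffolds, Eif4g1 and Eif4g3, were not called in any comparison, and Eif4g3 held 147 to 182 CPM in PAP TRAP, 166 to 206 in synaptoneurosome input, 112 to 192 in cortex TRAP and 139 to 184 in cortex input. The cap-binding protein Eif4e was likewise not called, at 4.12 to 18.1 CPM in PAP TRAP and 14.8 to 22.7 in cortex TRAP. Its relative Eif4e2, which binds the cap without starting translation, had 11.1, 4.21 and 1.71 CPM in PAP TRAP against 14.8, 12.9 and 24.5 in cortex TRAP (-1.62 ± 0.56, adjusted p = 0.0326), and that call was lost without cortex TRAP replicate 1 or 3 or PAP TRAP replicate 2 or 3. Its size depended on single PAP TRAP libraries, at -2.56 without replicate 1 and -1.06 without replicate 3, and the call was also lost with the compared groups alone and without mitochondrial genes. Eif4enif1, the carrier of eIF4E into the nucleus, had 19.4, 11.1 and 14.5 CPM in cortex TRAP against 41.8, 31.6 and 32.9 in cortex input (-1.24 ± 0.35, adjusted p = 0.00847).

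The eIF4A helicases unwind the message leader. Eif4a2 had 36.2, 28.3 and 51.3 CPM in PAP TRAP, 45.6, 46.0 and 81.1 in synaptoneurosome input, 48.3, 34.9 and 32.5 in cortex TRAP and 89.0, 103 and 103 in cortex input. It was lower in cortex TRAP than in cortex input by -1.35 ± 0.31 (adjusted p = 0.00189), and its difference in PAP TRAP against cortex TRAP had a 95% interval from -0.64 to 0.64. Eif4a1 had 3.86, 7.77 and 5.36 CPM in PAP TRAP, 9.12, 8.06 and 8.49 in synaptoneurosome input, 33.6, 21.1 and 13.7 in cortex TRAP and 12.7, 12.3 and 13.0 in cortex input. Its change was -2.01 ± 0.45 in PAP TRAP against cortex TRAP (adjusted p = 0.00207). Of its windows, 33.3% are shared with 11 genes, 8 of them pseudogenes. Eif4a3, the helicase of the exon junction complex, was higher in cortex TRAP, at 15.5, 19.7 and 16.9 CPM, than in cortex input, at 4.15, 6.71 and 2.81 (1.93 ± 0.59, adjusted p = 0.0151). That call was lost without cortex input replicate 1 or 3 or cortex TRAP replicate 2, and with length-corrected offsets. The helicase cofactors Eif4b and Eif4h were not called in any comparison.

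Eif4ebp2, the eIF4E-binding protein that predominates in brain, was higher in each TRAP group than in its own input. It had 61.0, 69.3 and 46.7 CPM in PAP TRAP, 34.0, 21.2 and 17.8 in synaptoneurosome input, 52.5, 59.4 and 84.4 in cortex TRAP and 12.4, 16.2 and 14.2 in cortex input. TRAP libraries of both preparations overlapped and stood above every input. The change was 1.28 ± 0.32 in PAP TRAP against synaptoneurosome input (adjusted p = 0.0290) and 2.20 ± 0.33 in cortex TRAP against cortex input (adjusted p = 2.71e-05). The first call was lost without synaptoneurosome input replicate 2 or 3 or PAP TRAP replicate 1 or 2 (adjusted p up to 0.112), and the second held with every library left out. Astrocyte markers were called higher in 3 of 10 cases in the first comparison and 10 of 10 in the second. Neuron markers were called lower in 2 of 10 and 10 of 10 cases, and microglia markers in 1 of 8 and 5 of 8. Of 6 oligodendrocyte markers, 1 was called higher and 1 lower in the first comparison and 5 lower in the second. The part of any cell type in the change of Eif4ebp2 was not tested. Eif4ebp1 was called in both comparisons with cortex TRAP from very few counts, at 0.176, 0.0826 and 0.389 CPM in PAP TRAP, 3.51, 2.65 and 5.74 in cortex TRAP and 0.222, 0.0665 and 0.611 in cortex input, and each call was lost in 3 of 6 fits without a library.

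**Figure D3:**
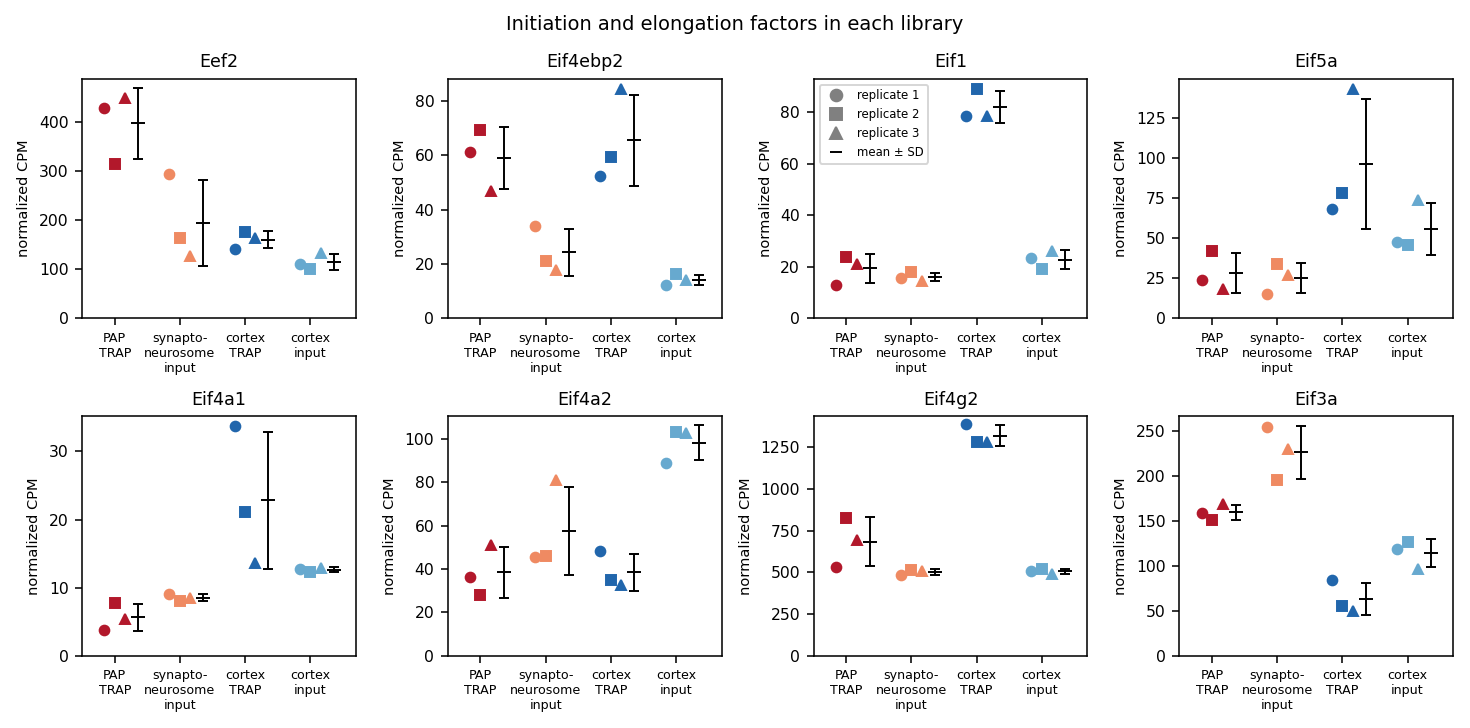
Normalized CPM (vertical axes) of 8 factors in each library of the 4 groups (horizontal axes); symbols are replicates and black bars the mean ± SD of 3 libraries. Eef2 is highest in PAP TRAP (315 to 448 CPM), Eif1 and Eif4g2 in cortex TRAP (78.4 to 89.1 and 1282 to 1391 CPM), Eif3a in synaptoneurosome input (195 to 254 CPM), Eif4a2 in cortex input (89.0 to 103 CPM), and Eif4ebp2 stands above both inputs in both TRAP groups.

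Eif5a, the hypusine-bearing factor that relieves stalled ribosomes, had 23.9, 42.2 and 18.3 CPM in PAP TRAP, 15.2, 33.7 and 27.0 in synaptoneurosome input, 68.2, 77.8 and 143 in cortex TRAP and 47.4, 45.7 and 74.0 in cortex input. It was lower in PAP TRAP than in cortex TRAP by -1.77 ± 0.39 (adjusted p = 0.00156), with every library left out as well. The call was lost with length-corrected offsets (adjusted p = 0.0681). Its paralog Eif5a2 had 12.7, 14.3 and 10.9 CPM in cortex TRAP and 26.1, 30.7 and 45.2 in cortex input, a change of -1.43 ± 0.37 (adjusted p = 0.00479). Eif6, which keeps the ribosomal subunits apart, was not called in any comparison, at 6.14, 1.16 and 16.2 CPM in PAP TRAP and 2.73, 1.79 and 1.93 in synaptoneurosome input.

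Members called lower in PAP TRAP than in cortex TRAP tended to have short transcripts. Their longest annotated transcripts had a median of 2168 bases, against 3801 for the 4 called higher and 3383 for the 39 not called. Lengths of all genes called were not compared. With offsets corrected for length, 19 factors were called in PAP TRAP against cortex TRAP (4 higher and 15 lower). In cortex TRAP against cortex input 13 were called (9 higher and 4 lower). Over all genes tested, the correction also lowered the number called, from 4526 to 3826 in the first comparison and from 4737 to 4362 in the second. Of the 24 calls in PAP TRAP against cortex TRAP, 10 were lost under that correction, those of Eef1akmt2, Eif2b1, Eif2b2, Eif2s1, Eif3f, Eif3g, Eif3h, Eif3i, Eif3k and Eif5a. Of the 19 in cortex TRAP against cortex input, 8 were lost, those of Eef1a1, Eef1b2, Eif2b2, Eif3a, Eif3h, Eif3i, Eif3l and Eif4a3.

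Ratios within 10 paralog pairs were set side by side, since they need no scaling between libraries. They were not corrected for transcript length, which can differ within a pair, as for Eif5a (1437 bases) and Eif5a2 (5027 bases). The windows that Eif4a1 (33.3%) and Eif1 (31.6%) share with other genes leave the ratios to them uncertain as well. The ratio of Eif4a2 to Eif4a1 averaged 6.84 in PAP TRAP, 6.40 in synaptoneurosome input, 1.78 in cortex TRAP and 7.75 in cortex input (geometric means of 3 libraries), so that cortex TRAP stood below the other groups without overlap. Eif5a2 to Eif5a was also lowest in cortex TRAP without overlap, at 0.619 in PAP TRAP, 0.808 in synaptoneurosome input, 0.138 in cortex TRAP and 0.610 in cortex input. Eif4g2 to Eif4g1 ran the other way, at 11.5 in PAP TRAP, 10.6 in synaptoneurosome input, 30.6 in cortex TRAP and 11.9 in cortex input. Eif1b to Eif1 was lower in the TRAP groups, at 0.525 in PAP TRAP against 0.958 in synaptoneurosome input, where the libraries overlapped, and 0.505 in cortex TRAP against 1.15 in cortex input, where they did not, with a stratified difference of -1.03 on the log2 scale (exact permutation test, two-sided, p = 0.01). Eif4g3 to Eif4g1 averaged 2.83 in PAP TRAP, 3.78 in synaptoneurosome input, 3.49 in cortex TRAP and 3.72 in cortex input. After adjustment over the 20 tests the smallest exact p was 0.1, so no pair passed. Unadjusted exact p-values were under 0.05 in both stratified tests for Eif4g2 to Eif4g1 and Eif5a2 to Eif5a. For Eef1a2 to Eef1a1, Eif1b to Eif1 and Eif4ebp2 to Eif4ebp1 this held in a single test. Both tests include the cortex TRAP libraries, so they are not separate results. Eif4g2 to Eif4g1 differed by only 0.12 in PAP TRAP against synaptoneurosome input and by -0.17 between the inputs. Eif5a2 to Eif5a differed by -0.38 and 0.41 there, and libraries overlapped in each of these cases.

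**Figure D4:**
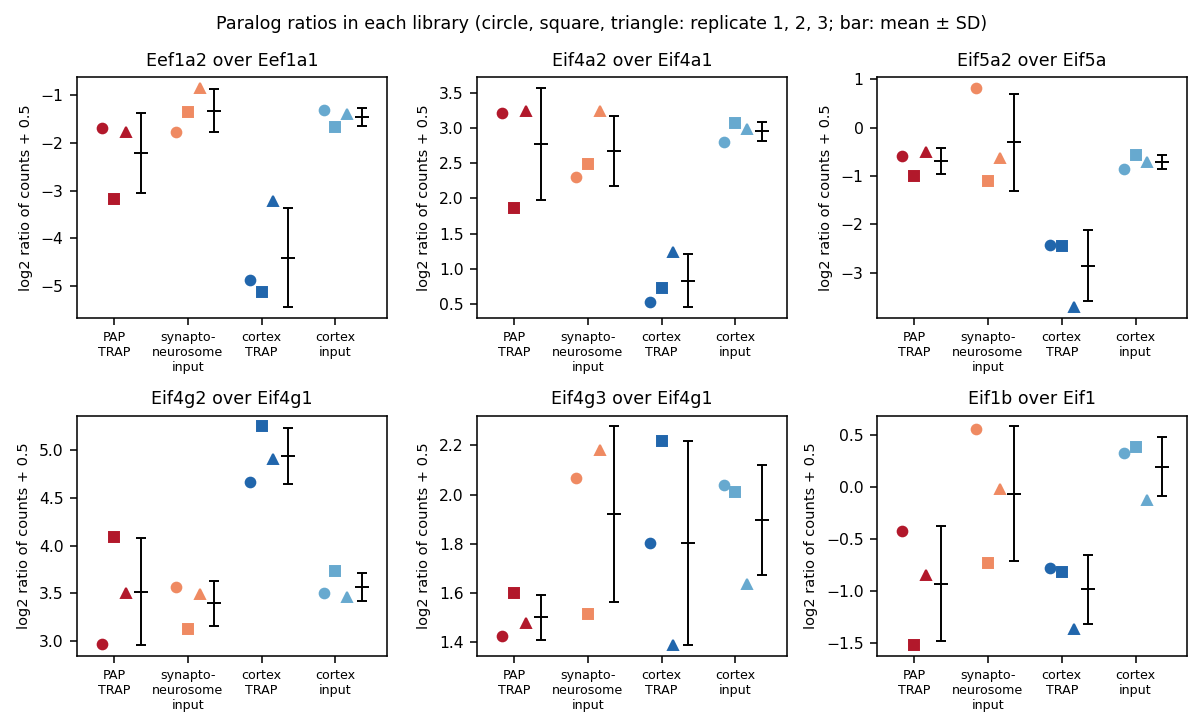
Log2 ratio of the counts of paralogs, with 0.5 added to each count (vertical axes), in each library of the 4 groups (horizontal axes). Symbols are replicates and black bars the mean ± SD of 3 libraries; the ratios of Eef1a2 to Eef1a1, Eif4a2 to Eif4a1 and Eif5a2 to Eif5a are lowest in cortex TRAP, and that of Eif4g2 to Eif4g1 is highest there.

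Other genes of the translation machinery gave a mixed picture. Of 9 termination and recycling factors tested, 3 were called lower and 0 higher in PAP TRAP against cortex TRAP, with a median of -0.84; they were Abce1, which splits ribosomes (-2.03 ± 0.50), Mcts1 and Mcts2. Of 8 genes of poly(A) binding, Pabpc1, the main poly(A)-binding protein, and Larp1, which binds pyrimidine-tract messages, were called higher there (0.78 ± 0.24 and 0.77 ± 0.24), and Paip2, an inhibitor of poly(A)-binding protein, lower (-1.80 ± 0.31). Of 11 genes of the mTOR pathway, Rptor, Tsc1 and Tsc2 were called higher in PAP TRAP against cortex TRAP (1.56 ± 0.37, 1.67 ± 0.37 and 1.97 ± 0.35) and Rheb, the mTOR activator that the Tsc proteins switch off, lower (-1.18 ± 0.34). Of 6 genes of the integrated stress response, Atf4, the transcription factor translated when eIF2 is phosphorylated, was called lower there (-2.93 ± 0.37) and higher in cortex TRAP against cortex input (2.06 ± 0.35). Cyfip2 and Cyfip1, eIF4E partners in the FMRP complex, differed in sign, at 3.13 ± 0.28 and -0.89 ± 0.32 in PAP TRAP against cortex TRAP and -3.34 ± 0.28 and 1.49 ± 0.33 in cortex TRAP against cortex input. Of 8 genes of diphthamide synthesis and selenocysteine incorporation, 3 were called lower in PAP TRAP against cortex TRAP, with a median of -1.65. Of 7 mitochondrial factors, 0 were called there (median -0.18). Among the 9 factors listed as pyrimidine-tract messages, 4 were called higher in cortex TRAP against cortex input (median 1.00), 1 in PAP TRAP against synaptoneurosome input (median 0.52), and 1 higher and 2 lower in PAP TRAP against cortex TRAP (median -0.48).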

How the data were processed

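The authors deposited whole-number counts per gene for each of the 12 libraries, not normalized, as the values in the files show. The tools named, without their roles, per the submitters' processing notes are HTSeq, STAR, Bowtie2 and Trimmomatic 0.32. For the genome build, annotation and strandedness of counting, nothing is stated (not given in the sources used here). Per the labels' protocols, cDNA was amplified by SPIA before library preparation, which can distort the level of single genes. Rows that name no gene (20.3% to 55.5% of counts) were left out of library sizes and tests. Genes were named from GENCODE M21 (GRCm38), which may differ from the authors' annotation, and 40254 of 41388 IDs had a symbol.

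Counts were fitted with edgeR 4.0.16 (R 4.3.3, limma 3.58.1; TMM scaling, filterByExpr with a minimum count of 10 and a minimum total of 15, quasi-likelihood test) over all 12 libraries. The 5 comparisons were adjusted by Benjamini-Hochberg over 13364 genes, with a threshold of 0.05. The fit was also run on simulated counts with changes planted in PAP TRAP alone, a simpler setting than these data, and no result here rests on it. Alternatives were RLE scaling, no filter, DESeq2 1.42.0, the compared groups alone, a replicate block, no mitochondrial genes, offsets corrected for GC content or length, a minimum fold of 1.5 and each library left out. Ratios were tested by exact permutation. Named with their changes were Eef1a1, Eef1a2 and, per comparison, the 10 called members with the largest change at a mean log2 CPM of at least 3; further called members were named as well. The members and lists were chosen with earlier results of these data known. Same-numbered libraries deviated together only weakly, with no correlation over 0.1, so the numbers were not taken as pairs.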

Additional observations from a re-analysis of the deposited data

Results flagged for a closer look

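In 5 factors the enrichment in PAP TRAP over synaptoneurosome input differed from that in cortex TRAP over cortex input by the interaction term of the edgeR fit (adjusted over all genes tested). The difference was -3.05 log2 for Eif3d (adjusted p = 0.0403), -2.71 for Eif2ak2 (adjusted p = 0.0481), -1.57 for Eif1 (adjusted p = 0.0134), 1.40 for Eif4enif1 (adjusted p = 0.0491) and -0.93 for Eif4g2 (adjusted p = 0.0304). The share called over all genes was larger, as given above. That of Eif3d was -0.94 (adjusted p = 0.537) without cortex TRAP replicate 1, which held most of its counts. Each of the 5 calls was lost in some fits that left out a library: 9 of 12 for Eif3d, Eif2ak2 and Eif4g2, 8 of 12 for Eif4enif1, and 3 of 12 for Eif1 (without cortex input replicate 1 or 2 or cortex TRAP replicate 2, adjusted p up to 0.0748). With length-corrected offsets the calls of Eif1 (-0.81), Eif3d (-2.73, adjusted p = 0.0736) and Eif4enif1 (1.37, adjusted p = 0.0562) were lost, and Eif4g2 came to -1.77. Calls were also lost without mitochondrial genes for Eif3d and Eif2ak2, with no filter on low counts for Eif4enif1 and Eif4g2, and with RLE scaling for Eif4enif1.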

How the results depend on the processing

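Calls were followed factor by factor under each alternative except the minimum fold of 1.5, for which only numbers of calls were recorded. Under all alternatives so followed, 8 of 24 calls held in PAP TRAP against cortex TRAP. In cortex TRAP against cortex input, 9 of 19 did. With libraries left out, the number called ran from 13 to 22 in PAP TRAP against cortex TRAP, 0 to 2 in PAP TRAP against synaptoneurosome input, 12 to 15 in cortex TRAP against cortex input, 0 to 3 in synaptoneurosome input against cortex input and 0 to 6 for the interaction. A minimum fold of 1.5 gave 14, 0, 13, 0 and 1 in that order, and 3484, 137, 3923, 547 and 2190 over all genes. In synaptoneurosome input against cortex input, 3 were called with no filter, 5 with DESeq2, 5 with the compared groups alone and 2 with the replicate block. Over all genes these settings called 1400, 2016, 2146 and 1358, beside 1246 in the main fit. DESeq2 called 10 in the interaction, and GC-corrected offsets left 1 in PAP TRAP against synaptoneurosome input. Over all genes DESeq2 called 3364 in the interaction, beside 2699 in the main fit. GC-corrected offsets called 446 of all genes in PAP TRAP against synaptoneurosome input, beside 605. The cause of these shifts was not tested.

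Same-numbered libraries correlated at 0.012 to 0.074 in their deviations from the group means, all 18 pairs positive and none over 0.1, against -0.066 to 0.052 for the 36 pairs with different numbers, 27 of them negative. Deviations from a group mean cancel within the group, so positive same-numbered pairs push the other pairs down. The negative pairs are therefore not separate evidence. By the limit of 0.1 the numbers were not taken as pairs, but a limit on size cannot show that same-numbered libraries are unrelated. With the replicate block the counts, in the order above, were 26, 2, 20, 2 and 6, and 4564, 653, 4770, 1358 and 2726 over all genes. The Eef1a2 to Eef1a1 ratio in TRAP against input stayed at -1.92 with the block, with an exact permutation p of 0.0625. With libraries left out that ratio difference ran from -2.22 to -1.68, and in fractionated against whole tissue from 0.98 to 1.46; without synaptoneurosome input replicate 1 it was 1.27 (exact permutation p = 0.015).

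Small differences that were not called changed sign. Eef1a1 in synaptoneurosome input against cortex input (-0.08) became 0.018 with RLE scaling, 0.016 with DESeq2 and 0.078 with length-corrected offsets, and ran from -0.184 to 0.058 with libraries left out. Length correction also gave Eef1a1 0.38 in PAP TRAP against cortex TRAP and 0.30 in the interaction. Eef1a2 in synaptoneurosome input against cortex input (0.06) became -0.072 with GC correction and ran from -0.043 to 0.273 with libraries left out, at -0.014 without synaptoneurosome input replicate 2 and -0.020 without replicate 3. In PAP TRAP against synaptoneurosome input it ran from -0.438 to 0.032. The synaptoneurosome inputs had the fewest nuclear counts, which limits comparisons with them.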
